A study of Homo sapiens with 6 samples.

Results

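H3K4me3 regions were examined that were called in WT U2OS cells and not in ProMMP2-3xHA cells. U2OS is a human osteosarcoma cell line. A region counted as WT only when it came from the H3K4me3 list of the WT cells, was at least 500 bp wide, lay on chromosomes 1 to 22 or X, and overlapped no H3K4me3 region of the ProMMP2-3xHA cells by even 1 bp. The WT list held 17130 regions, of which 14700 passed the width and the chromosome criterion. Of these 14700 regions, 1133 (7.71%) were WT only and 13567 were shared. The WT-only regions were selected on the presence of 1 call and the absence of another, so that difference is a description and was not tested.

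The study used native ChIP-Seq (nChIP-Seq), in which micrococcal nuclease cuts unfixed chromatin into nucleosomes and an antibody then pulls down the wanted ones. The 6 samples fell into 4 groups: 3 HA replicates from ProMMP2-3xHA cells, 1 H3K4me3 library from the same cells, 1 H3K4me3 library from WT cells and 1 HA library from WT cells. ProMMP2-3xHA cells stably and constitutively express full-length MMP-2 in its pro-form, with 3 HA epitopes at the C-terminus, beside their endogenous MMP-2, and whether they derive from 1 clone is not given in the sources used here. WT cells carry no tagged protein, and both lines were grown until 2 days past confluence. With 1 H3K4me3 library for each line, a region seen in 1 list may differ through the library, its depth or the line, and these cannot be told apart. The study states only a minimum number of reads common to its libraries, and the lists hold no read counts, so the depth of one H3K4me3 library relative to the other is unknown. The H3K4me3 list of the ProMMP2-3xHA cells was the longer one, with 19102 regions in all against 17130 in the WT list. HA peaks of WT cells themselves were not analysed here.

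H3K4me3, histone H3 trimethylated at lysine 4, is laid down by methyltransferases of the SET1 and MLL families and marks nucleosomes at the start sites of active genes. It is strongest at promoters rich in CpG dinucleotides, and weaker or narrower marks also occur at enhancers and at genes with little transcription. MMP-2 is a matrix metalloproteinase known for cutting collagens outside the cell. It is also found in the nucleus, where it clips the N-terminal tail of histone H3, the tail that carries lysine 4.

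Sequences under 6 WT-only regions are shown as examples of CpG-rich and CpG-poor members. The first 4 are the 200 bases before the start of a gene whose promoter held 1 of the 10 widest WT-only regions at a protein coding start, read along the strand of the gene. They are given 5′ to 3′ from GRCh37 (hg19), with CpG dinucleotides in capitals. LAMB3 lies on the minus strand (chr1:209825771-209825970), IGFBP4 on the plus strand (chr17:38599502-38599701), SOX2 on the plus strand (chr3:181429513-181429712) and KMT2C on the minus strand (chr7:152133730-152133929).
LAMB3 upstream: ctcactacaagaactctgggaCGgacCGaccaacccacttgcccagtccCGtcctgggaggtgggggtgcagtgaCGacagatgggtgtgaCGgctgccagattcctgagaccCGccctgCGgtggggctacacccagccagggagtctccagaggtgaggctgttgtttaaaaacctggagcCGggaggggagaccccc
IGFBP4 upstream: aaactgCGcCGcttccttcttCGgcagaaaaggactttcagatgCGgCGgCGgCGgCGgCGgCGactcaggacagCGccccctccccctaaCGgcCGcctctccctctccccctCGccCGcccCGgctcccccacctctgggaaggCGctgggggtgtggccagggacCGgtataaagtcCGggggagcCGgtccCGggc
SOX2 upstream: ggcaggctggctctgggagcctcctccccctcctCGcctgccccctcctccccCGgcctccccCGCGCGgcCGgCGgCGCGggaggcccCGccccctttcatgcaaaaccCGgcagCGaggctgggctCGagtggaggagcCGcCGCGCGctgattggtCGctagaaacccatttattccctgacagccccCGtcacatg
KMT2C upstream: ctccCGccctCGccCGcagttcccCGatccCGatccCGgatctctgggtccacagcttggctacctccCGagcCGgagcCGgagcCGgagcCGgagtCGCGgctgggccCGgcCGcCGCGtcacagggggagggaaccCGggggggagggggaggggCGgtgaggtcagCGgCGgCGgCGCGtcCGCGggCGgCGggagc
The LAMB3 stretch held 8 CpGs, the IGFBP4 stretch 21, the SOX2 stretch 19 and the KMT2C stretch 28. The median over the same 200 bases was 17.0 CpGs for the genes at WT-only regions and 17.0 for all genes near a WT region. The IGFBP4 stretch also held TATAAA, the core of the TATA box, which on either strand occurred in 5.31% of the 200-base stretches before genes at WT-only regions and in 3.91% of those before all genes near a WT region.

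The other two are plus strand sequences from regions at no protein coding start that carried an HA peak in every replicate. The first is the centre (chr11:65420156-65420355) of the region with the highest HA enrichment, in intergenic sequence near RELA, again with CpGs in capitals. The second (chr16:87615529-87615728) is centred on TGAGTCA, a match to the AP-1 element TGANTCA, which is in capitals. It comes from an intergenic region at no protein coding start. No other such region had a merged HA peak, an HA peak in every replicate and this element in its central 500 bp.
Region near RELA: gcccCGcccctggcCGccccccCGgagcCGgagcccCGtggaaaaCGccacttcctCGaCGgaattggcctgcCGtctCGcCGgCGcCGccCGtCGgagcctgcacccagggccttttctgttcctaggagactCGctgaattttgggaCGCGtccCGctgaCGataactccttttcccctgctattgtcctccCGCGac
Region with AP-1 element: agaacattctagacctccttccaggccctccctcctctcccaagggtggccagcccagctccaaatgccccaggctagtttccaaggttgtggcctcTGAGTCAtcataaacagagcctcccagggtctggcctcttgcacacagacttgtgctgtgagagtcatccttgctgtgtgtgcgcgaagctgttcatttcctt
The first of these stretches held 22 CpGs and the second 2. The median of 200 bases at the centre was 16.0 CpGs over the WT-only regions and 16.0 over all WT regions.

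The WT-only regions were narrow. Their width had a median of 735 bp and quartiles of 603 and 1004 bp, against a median of 1709 bp and quartiles of 1235 and 2288 bp for the shared regions. The widest WT-only region measured 4754 bp and the widest shared one 10402 bp. Together the WT-only regions covered 0.982 Mb, and the shared regions 25.6 Mb. Of the WT-only regions, 846 (74.7%) were under 1000 bp wide, 261 (23%) measured 1000 to under 2000 bp and 26 (2.29%) were 2000 bp or wider.

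Read the other way, WT-only regions made up 29.6% of all WT regions under 1000 bp (exact 95% interval 28.0 to 31.4%). They made up 3.74% of those of 1000 to under 2000 bp (3.31 to 4.21%) and 0.535% of those of 2000 bp or more (0.349 to 0.782%). All intervals given here are exact Clopper-Pearson intervals and cover counting error only. Because width moved with the class this strongly, the shares that turned on it are also given for regions under 1000 bp, and the others are over all widths.

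The calls nearest to both limits were ordinary small regions. The narrowest WT-only region was 500 bp wide (chr4:91487871-91488370, an intron of CCSER1), and 2 more measured 501 bp, of which 1 lay at the start of P4HA3 (chr11:74022183-74022683), a subunit of the enzyme that hydroxylates collagen prolines. Regions just too narrow lay at KRT222 (chr17:38821181-38821679) and in intergenic sequence near CCDC115 (chr2:131094880-131095378). In all, 132 WT-only regions exceeded the limit by less than 50 bp, and 162 further WT regions without overlap missed it by at most 50 bp.

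Few WT-only regions lay within 1 kb of an H3K4me3 region called in the ProMMP2-3xHA cells. The rule excluded overlap, so the gaps describe the selection, and no reference distance was computed. The gap to the nearest ProMMP2-3xHA region had a median of 44.3 kb and quartiles of 15.0 and 114 kb. It was at most 1 kb for 8 regions (0.706%), at most 10 kb for 197 (17.4%) and over 100 kb for 321 (28.3%). The closest lay 2 bp from a ProMMP2-3xHA region near BCOR (chrX:40126192-40126757), followed by 26 bp at the start of CHMP2A (chr19:59065775-59066566). On the other side of the limit, the shared region at the histone gene H3C6 (chr6:26223715-26224444) overlapped by 12 bp and that at HPSE2 (chr10:100994509-100995559) by 24 bp.

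Next, the regions were placed relative to genes. WT-only regions were less often at gene starts than shared regions were, and more often in introns or outside genes. A transcription start site (TSS) of a protein coding gene, taken as the 5′ end of the gene, lay within 1 kb of 390 of the 1133 WT-only regions, or 34.4% (31.7 to 37.3%). The share was 71.5% of shared regions (70.7 to 72.2%) and 68.6% of all WT regions. Within the regions under 1000 bp, the shares were 29.1% for WT-only regions (26.0 to 32.3%) and 42.8% for shared regions (40.7 to 45.0%).

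The remaining WT-only regions were spread over several kinds of sequence. A further 153 (13.5%) lay within 1 kb of another start of a protein coding gene, 109 (9.62%) near the start of a long noncoding RNA gene and 38 (3.35%) near the start of another gene type, mostly pseudogenes. No annotated start lay near 136 regions within protein coding genes (12%) or near 307 regions outside them (27.1%). This last class held 6.16% of shared regions (5.76 to 6.58%). Among regions under 1000 bp it held 31.7% of WT-only regions (28.6 to 34.9%) and 21.3% of shared ones (19.5 to 23.1%), and lncRNA starts held 9.22% and 11.2%.

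**Figure D1:**
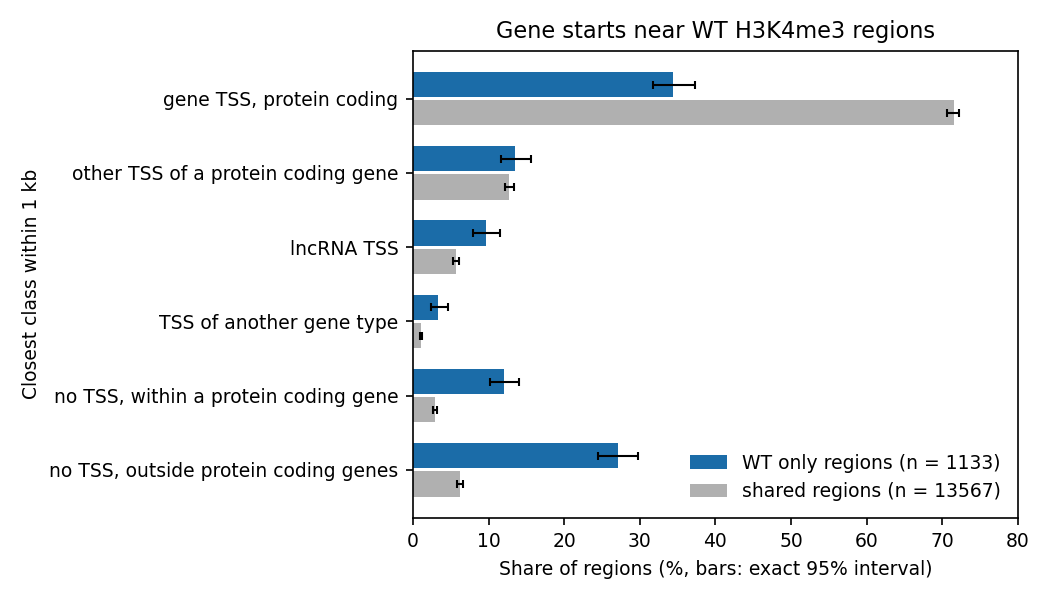
Share of WT-only (blue) and shared (grey) H3K4me3 regions in each class of gene start within 1 kb, in percent, where each region counts once in the first class that applies and error bars are exact 95% intervals. Protein coding gene starts held 34.4% of WT-only and 71.5% of shared regions, and regions without any start outside protein coding genes held 27.1% and 6.16%.

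By the position of their centre, 364 WT-only regions (32.1%) lay in a promoter, defined as 1 kb either side of a protein coding TSS, 327 (28.9%) in an intron and 270 (23.8%) in intergenic sequence. Other exons, most of them noncoding, held 82 (7.24%), 5′ UTRs 53 (4.68%), coding exons 26 (2.29%) and 3′ UTRs 11 (0.971%). For shared regions, the promoter share was 64.5%, the intron share 17.0% and the intergenic share 5.96%. With only regions under 1000 bp, the promoter shares were 28.1% for WT-only and 41.2% for shared regions, the intron shares 29.9% and 24.8%, and the intergenic shares 27.2% and 19.3%. The shares in 5′ UTRs (5.00% of shared regions) and coding exons (2.12%) were close in both classes, with intervals that overlapped.

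The WT-only regions lay near the TSSs of 414 protein coding genes, which is 3.49% of the 11876 genes within 1 kb of a WT region. None of the 414 genes also lay within 1 kb of a shared region, and 24 regions had the TSSs of at least 2 genes. Of the 414 genes, 49 (11.8%) had an annotated transcript start, the same or another, within 1 kb of a ProMMP2-3xHA region. Examples are CCND2, the gene of cyclin D2, FLNA, the gene of the actin crosslinker filamin A, and PER1, a gene of the circadian clock. At CHMP2A it was the same start. The rest had no annotated start of a protein coding transcript near ProMMP2-3xHA H3K4me3. A further 146 genes had at a WT-only region only a start other than the annotated 5′ end of the gene. Of these, 75 (51.4%) also had a start near a ProMMP2-3xHA region, for example TCF4, LEPR, NFIC and KRT8. Which annotated start is the main one of a gene was not examined.

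The widest WT-only region of all lay at LAMB3 (ENSG00000196878), which encodes the β3 chain of the basement membrane protein laminin-332. It spanned 4754 bp (chr1:209821630-209826383), contained the TSS and reached into the first part of the gene. No HA peak lay within 1 kb, and the nearest ProMMP2-3xHA H3K4me3 was 131 kb away. Its central 500 bp had a GC content of 51.6% and 2 CpGs, well under the median of 38.0 CpGs for WT-only regions.

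The next widest region at a TSS was at SHF, an adaptor protein gene (3127 bp, chr15:45490144-45493270), followed by SHISA9, which encodes a regulator of AMPA receptors (2793 bp, chr16:12995107-12997899). A region of 2705 bp (chrX:152952990-152955694) covered the starts of SLC6A8, the creatine transporter gene, and PNCK, a kinase gene. IGFBP4, which encodes a secreted protein that binds insulin-like growth factors, had 2686 bp (chr17:38599285-38601970), and F2RL2, the gene of a thrombin receptor, had 2466 bp (chr5:75916700-75919165). None of these carried a merged HA peak.

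KMT2C, itself a gene of an H3K4 methyltransferase, had a WT-only region of 2452 bp (chr7:152131578-152134029), with ProMMP2-3xHA H3K4me3 26.5 kb away. ARHGAP6 had 2413 bp (chrX:11682229-11684641) and the homeobox gene IRX5 had a region of 2372 bp (chr16:54961485-54963856) that ended 0.920 kb from its TSS and lay within 1 kb of the start of the noncoding RNA gene CRNDE. SOX2, a transcription factor gene of stem cells, had 2319 bp (chr3:181429009-181431327) and was the only one of these 10 with an HA peak, which was in replicate 2 alone with a fold enrichment of 5.85. ProMMP2-3xHA H3K4me3 lay 2.03 kb from the SOX2 region.

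Among WT-only regions without a protein coding gene TSS, the widest measured 3342 bp (chr9:69144948-69148289) and lay at the pseudogene PGM5P2, 130 kb from a gap in the assembly. In such multicopy sequence, reads were kept only where they aligned to 1 place with confidence. Others marked annotated starts away from the 5′ end of the gene, which may or may not be its main start. These were 2749 bp in ESM1 (chr5:54278975-54281723), a gene of a secreted endothelial proteoglycan, 2652 bp in CBLN2 (chr18:70208944-70211595), 2499 bp in NFIC (chr19:3358842-3361340) and 2076 bp in ASIC2 (chr17:31618275-31620350). Introns without an annotated start nearby held 2260 bp in PTPRN2 (chr7:157476643-157478902), 2106 bp in TLN1 (chr9:35727714-35729819) and 2099 bp in FGF9 (chr13:22247758-22249856). Another was an intergenic region of 2099 bp (chrX:118160762-118162860) with an HA peak of 5.97 fold in replicate 1 alone.

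Genes were then grouped by family. Several families of developmental and signalling genes had WT-only regions at more of their members than the 3.49% over all genes near a WT region, and others did not. For some lists with a higher share, such as the FGF, TGF beta, forkhead and calcium channel genes, the interval included 3.49%. These counts are a description without a test, since the lists were drawn up with earlier results of the data known. Width moved with the class here too: the widest WT region at a gene had a median of 1859 bp over all genes near a WT region and of 866 bp over genes at WT-only regions.

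Of 11 SOX genes near a WT region, 4 were at WT-only regions (36.4%, 10.9 to 69.2%). Beside SOX2, these were SOX8 (701 bp), SOX21 (691 bp) and SOX3 (647 bp), all genes of HMG box transcription factors. The median width over the 11 SOX genes was 2319 bp, so the list as a whole was not narrow. Of 47 other homeobox genes, 6 were at WT-only regions (12.8%, 4.83 to 25.7%), with IRX5 the widest and LMX1B (2093 bp), known for patterning the dorsal limb, IRX6 (1216 bp) and DLX4 (1182 bp) the next widest. Of 23 HOX genes near a WT region, only HOXD11 was at a WT-only one (569 bp, chr2:176968558-176969126), a share of 4.35% (0.110 to 21.9%). HOXD11 counted by the annotated 5′ end of the gene alone, since no start of its protein coding transcripts lay within 1 kb. Of 23 forkhead genes, 2 were at WT-only regions (8.70%, 1.07 to 28.0%), FOXA1 (1070 bp) and FOXB2 (548 bp).

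Among Wnt ligands and receptors, 4 of 19 genes were at WT-only regions (21.1%, 6.05 to 45.6%). These were the ligand genes WNT9A (2012 bp, chr1:228134613-228136624), WNT2 (1732 bp, chr7:116963005-116964736) and WNT7A (1151 bp) and the receptor gene FZD10 (675 bp). None of the 4 had an HA peak in any replicate. The FGF family had 2 of 12 (16.7%, 2.09 to 48.4%), the neighbouring ligand genes FGF3 (872 bp, chr11:69632547-69633418) and FGF4 (544 bp, chr11:69589588-69590131). The TGF beta family had 3 of 36 (8.33%, 1.75 to 22.5%), all ligand genes: BMP6 (1244 bp), GDF7 (1067 bp) and GDF10 (712 bp).

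Metalloproteinase and inhibitor genes, the family of MMP-2, had 5 of 34 at WT-only regions (14.7%, 4.95 to 31.1%). The widest were ADAM11 (1163 bp), ADAMTS16 (910 bp), ADAM29 (840 bp) and ADAMTS20 (593 bp), all 5 being members of the membrane-bound ADAM and the secreted ADAMTS groups, and no MMP or TIMP gene was among them. ADAM29 counted by the annotated 5′ end of the gene alone, since no start of its protein coding transcripts lay within 1 kb. The interferon response list was drawn up by gene symbol and took in every STAT gene. Of its 21 genes near a WT region, 4 were at WT-only regions (19.0%, 5.45 to 41.9%). These were OASL (847 bp), the antiviral GTPase gene MX1 (812 bp), and STAT5A and STAT5B, whose TSSs shared 1 region of 732 bp (chr17:40440057-40440788). That region counts for both genes in the share. The interferon list had narrow regions in general, with a median of 1073 bp. Integrins had 1 of 15 (6.67%, 0.169 to 31.9%), ITGA9 (713 bp).

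Membrane transport and receptor genes followed. Potassium channels had 5 of 40 (12.5%, 4.19 to 26.8%), with KCNJ11 (994 bp), a subunit of the ATP-sensitive channel, the widest. Calcium channels had 2 of 12 (16.7%, 2.09 to 48.4%), CACNA1H (698 bp) and CACNG6 (521 bp). G protein coupled receptors had 6 of 40 (15.0%, 5.71 to 29.8%), among them GPR149 (1256 bp). Solute carriers had 12 of 196 (6.12%, 3.20 to 10.5%), among them SLC2A4 (1581 bp), the gene of the insulin-responsive glucose transporter. Zinc finger (ZNF) genes had 12 of 412 (2.91%, 1.51 to 5.03%), near the background share, with ZNF282 (1656 bp) and ZNF467 (1509 bp) the widest. Protocadherins had 1 of 19 (PCDHA8, 5.26%, 0.133 to 26.0%) and semaphorins and plexins 1 of 21 (PLXNC1, 4.76%, 0.120 to 23.8%).

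No WT-only region lay at any of 89 ribosomal protein genes near a WT region (0 to 4.06%), 43 proteasome genes (0 to 8.22%), 19 collagen genes (0 to 17.6%) or 15 ephrin and receptor genes (0 to 21.8%). Their median widths were 2756 bp for ribosomal protein genes, 1903 bp for proteasome genes and 2379 bp for collagen genes. T-box, GATA, sodium channel, keratin and claudin genes also had none, with at most 7 genes near a WT region in each list.

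**Figure D2:**
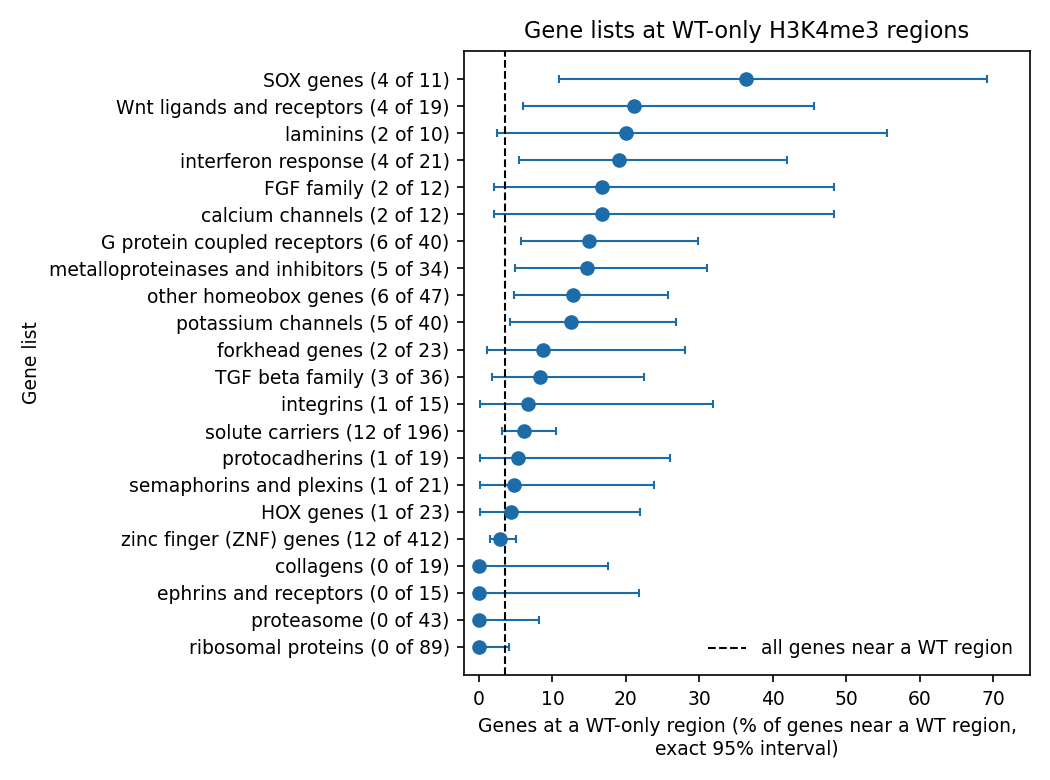
Share of the genes near a WT H3K4me3 region that lay at a WT-only region, in percent, for gene lists with at least 10 such genes; points are shares, bars exact 95% intervals, and the dashed line marks the 3.49% over all genes near a WT region. SOX genes (4 of 11) had the highest share in the plot, and ribosomal protein genes (0 of 89) and proteasome genes (0 of 43) had none.

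Cell type markers were read from every annotated start of a protein coding transcript. On this basis 4.30% of all genes near a WT region had a start at a WT-only one. Of 22 osteosarcoma and mesenchymal markers, 15 had a WT region within 1 kb, including RUNX2, COL1A1, VIM, FN1 and MMP2, and 0 had a WT-only region. Osteoblast genes such as SP7, ALPL, SPP1, BGLAP and IBSP had no WT region. SP7 did have ProMMP2-3xHA H3K4me3 at some start, as did 16 of the 22 markers in all. Of 10 epithelial markers, 3 had a WT region, and EPCAM and KRT8 had a WT-only one as well as ProMMP2-3xHA H3K4me3 at some start. Of 9 blood markers, only CD34 had one, which was WT only and without ProMMP2-3xHA H3K4me3 at any start. Of 4 annotated endothelial markers, KDR had a WT region, which was shared. All 6 neuronal markers had a WT region, and RBFOX3 and ELAVL4 had a WT-only one.

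HA peaks were examined next, which show where tagged MMP-2 was recovered in the ProMMP2-3xHA cells. WT-only regions seldom had an HA peak. In the merged HA list, a peak lay within 1 kb of 77 WT-only regions, or 6.80% (5.40 to 8.42%), against 42.0% of all WT regions and 44.9% of shared ones (44.1 to 45.8%). By replicate, the share of WT-only regions with a peak within 1 kb was 6.0% in replicate 1, 7.68% in replicate 2 and 6.80% in replicate 3. The share of shared regions was 32.8%, 44.8% and 45.7%, and over all WT regions it was 30.8%, 42.0% and 42.7%.

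The share was thus lower for WT-only regions in 3 of 3 replicates, with no overlap between the classes. The mean was 6.83% ± 0.839 (SD, n = 3) for WT-only regions and 41.1% ± 7.20 for shared regions. The difference, WT only minus shared, averaged -34.3 percentage points (SD 6.54). An exact two-sided permutation of the sign over the 3 replicates gave p = 0.25, which is the smallest p that 3 replicates allow, so the design cannot reach 0.05. Adjusted over the 5 such tests made, p was also 0.25. The HA peaks came from the same ProMMP2-3xHA cells whose H3K4me3 calls defined the classes. The study describes HA peaks at TSSs as resembling H3 marks of active genes, so the direction of the difference was not independent of the rule. The test cannot separate the difference from that selection.

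Within width classes, the difference was smaller than over all widths for regions under 2000 bp, and larger for those of 2000 bp or more. For regions under 1000 bp, an HA peak lay near 5.44%, 6.97% and 6.86% of WT-only regions in replicates 1, 2 and 3, and near 12.7%, 17.7% and 17.6% of shared regions. The mean difference was -9.60 percentage points (SD 1.98, exact permutation p = 0.25). At 1000 to under 2000 bp it was -28.9 points (SD 7.18), and at 2000 bp or more, where the WT-only class held 26 regions, it was -54.2 points (SD 10.2), each with the same p. Among shared regions the HA share rose with width, from a mean of 16.0% to 56.7%. Among WT-only regions the means were 6.42%, 8.56% and 2.56%.

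**Figure D3:**
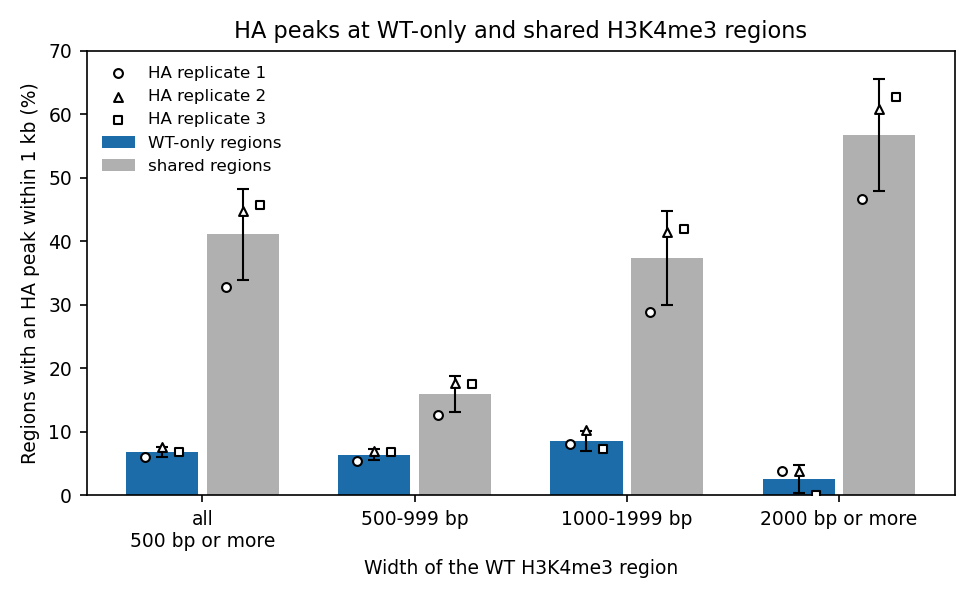
Share of H3K4me3 regions with an HA peak within 1 kb, in percent, by width class of the WT region, for WT-only (blue) and shared (grey) regions; bars are means, symbols the 3 HA replicates and error bars the SD. WT-only regions lay at or under 10.3% in every replicate and class, while shared regions reached a mean of 56.7% at 2000 bp or more.

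The enrichment of called HA peaks was then compared. It covers only peaks past the same q-value in both classes and says nothing of regions without a call. The median fold enrichment was 4.88, 5.57 and 4.56 at WT-only regions in replicates 1, 2 and 3 (68, 87 and 77 regions), and 5.00, 5.63 and 4.98 at shared regions. The log2 ratio averaged -0.06 ± 0.06 (SD, n = 3; exact permutation p = 0.25). It was slightly below 0 in 3 of 3 replicates. The merged HA peaks were narrower at WT-only regions, with a median of 329 bp for 77 peaks against 472 bp for 6005 peaks at shared regions. Of the 77 WT-only regions, 73 were overlapped by their merged HA peak, whose centre lay a median of 206 bp from that of the region.

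By replicate calls, 1006 WT-only regions (88.8%) had no HA peak within 1 kb, 58 had one in 1 replicate, 33 in 2 and 36 in all 3. A peak of every replicate lay at 3.18% of WT-only and 25.8% of shared regions. A merged peak lay near 3.90% of the WT-only regions with a protein coding transcript start (2.43 to 5.89%) and near 9.43% of those without one (7.20 to 12.1%). For shared regions the shares were 47.8% with a start (46.9 to 48.8%) and 29.8% without one (27.9 to 31.7%). Whether the effect of a start differed between the classes was not tested. Among regions under 1000 bp, the shares with and without a start were 3.68% and 8.11% for WT-only and 16.4% and 18.1% for shared regions. By feature of the centre, a merged peak lay near 15.1% of WT-only regions in 5′ UTRs (8 of 53) and 11.5% in coding exons (3 of 26). The share was 9.26% in intergenic sequence (25 of 270), 9.09% in 3′ UTRs (1 of 11) and 7.32% in other exons (6 of 82). In introns it was 6.73% (22 of 327) and in promoters 3.30% (12 of 364). Several of these shares rest on few regions, and they were not computed for shared regions, so they have no background here.

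The WT-only region with the strongest HA signal was the intergenic region near RELA (887 bp, chr11:65419813-65420699), which lay 9.86 kb from the RELA start and 8.62 kb from ProMMP2-3xHA H3K4me3. Its HA fold enrichment was 13.3, 20.0 and 17.4, a mean of 16.9 ± 3.36 (SD, n = 3). A region in a coding exon of SYNPO, a gene of an actin-associated protein (942 bp, chr5:150035833-150036774), had 8.98, 13.1 and 8.71 fold. An intergenic region near SEPTIN1 (1111 bp, chr16:30411496-30412606) had 10.5, 10.8 and 7.23 fold. The RELA region stood above the other 9 of these in every replicate.

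At gene starts, MED11, which encodes a subunit of the Mediator complex, had a region of 1495 bp (chr17:4634055-4635549) with an HA enrichment of 6.45, 11.3 and 8.44 fold. SPAG4, a gene of a nuclear envelope protein, had 1310 bp (chr20:34203567-34204876) with 8.25, 10.0 and 5.97 fold. The others of the 10 strongest had mean enrichments between 7.87 and 9.08 fold and lay in introns of LRRC23, UBE2A and a noncoding gene near SCAND3 or in intergenic sequence near PTMA and SKOR1. The SDs of the 10 regions ranged from 0.399 to 3.74 fold, so the order among all but the first was not resolved by the replicates.

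**Figure D4:**
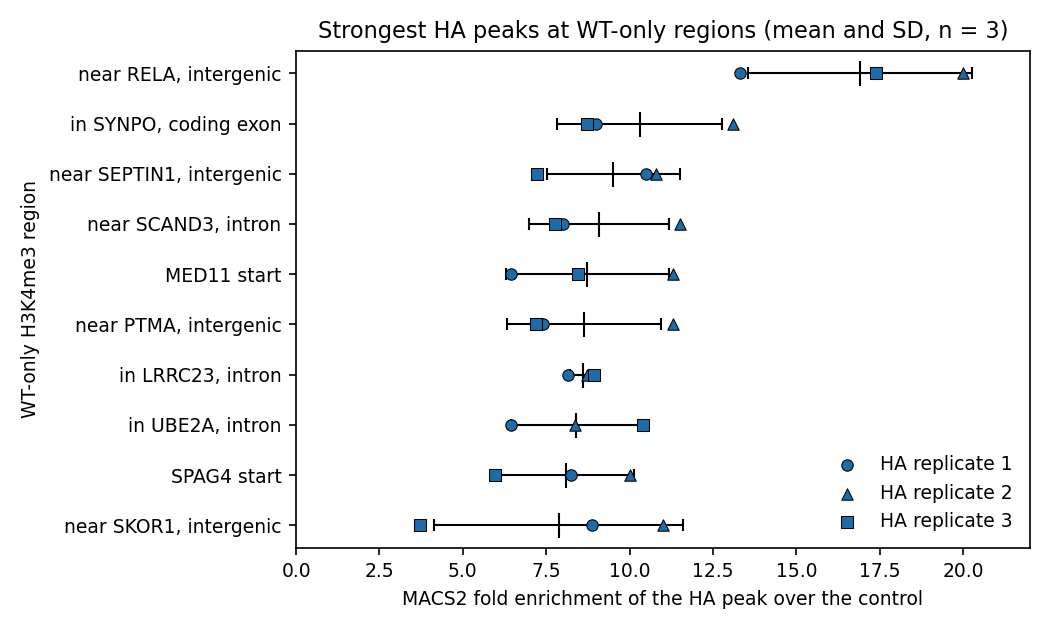
HA fold enrichment over the control, as given by the MACS2 peak caller, at the 10 WT-only regions with the highest mean among those with a merged peak and a peak of every replicate; symbols are the 3 replicates, ticks the mean and bars the SD. The region near RELA lies at 13.3 to 20.0 fold, and the other 9 means lie between 7.87 and 10.3 fold.

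Below these 10 were several gene starts, named here after their values were seen. CEBPA, a gene of a transcription factor of myeloid and fat cells, had a region of 523 bp (chr19:33792848-33793370) with 7.41, 9.06 and 5.26 fold. RND1, a gene of a small GTPase, had 7.29, 11.0 and 4.84 fold (chr12:49259088-49259647). PER1 had 4.52, 5.57 and 4.84 fold (chr17:8059087-8060540), and CD82, a tetraspanin gene, had 4.40, 6.27 and 3.44 fold (chr11:44586405-44587904). AXL, a receptor tyrosine kinase gene, and CIRBP, a gene of a cold-inducible RNA-binding protein, had regions at starts away from the 5′ end. Their HA means were 5.54 ± 1.11 and 6.06 ± 0.720 fold (SD, n = 3).

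Some starts with a merged HA peak had a peak in few replicates, such as SOX2 in replicate 2 and CHST8 in replicate 1 alone, while CALB2 had none. At WDR74 (chr11:62609589-62610170), which lies beside U2 small nuclear RNA sequence, the HA enrichment was 25.3 fold in replicate 3 and 3.41 fold in replicate 2, and no peak was called in replicate 1.

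The WT-only regions were then followed along the genome. On the autosomes they made up 5.62% (chromosome 3) to 9.93% (chromosome 21) of the WT regions, 7.53% in all. On the X chromosome they made up 12.5%, 66 of 526 regions (9.84 to 15.7%), the highest share of any chromosome. The intervals of 9 autosomes (1, 2, 3, 6, 8, 11, 14, 19 and 22) lay wholly below that of X, and those of the others overlapped it.

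**Figure D5:**
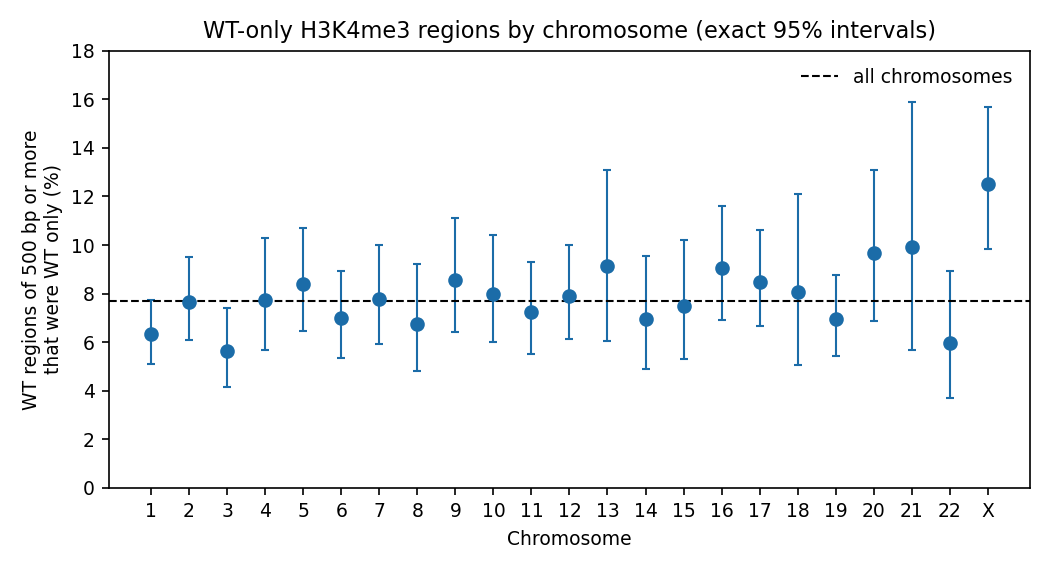
Share of WT H3K4me3 regions of at least 500 bp that were WT only, in percent, for each chromosome, with exact 95% intervals; the dashed line marks the 7.71% over all chromosomes. Chromosome X stands highest at 12.5%, and chromosome 3 lowest at 5.62%.

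Most WT-only regions stood singly between shared ones. Of the runs of consecutive WT regions that were all WT only, 895 held 1 region, 94 held 2, 12 held 3, 1 held 4 and 2 held 5. The longest spanned 1.31 Mb (chr12:129338128-130646911), from the start of GLT1D1 (746 bp) over that of TMEM132D (874 bp) to FZD10 (675 bp), with 2 regions at noncoding RNA genes between the first and the second. The ProMMP2-3xHA list held 3 regions of its own in this span. None of the 5 had an HA peak.

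The second run of 5 covered 1.12 Mb (chr15:28015118-29132251), from an intron of OCA2, a pigmentation gene, to an intronic region near the start of APBA2, across the duplicated GOLGA8 genes, and included a region of 877 bp at GOLGA8M (chr15:28982541-28983417). The ProMMP2-3xHA list held 0 regions in this span. A region of 924 bp (chr15:28834213-28835136) had a merged HA peak, with 4.52 fold in replicate 1 and 5.53 fold in replicate 3. The other regions of this run had no HA peak in any replicate. The run of 4 lay on the X chromosome over 0.260 Mb (chrX:106919715-107179524) and held the starts of MID2, NCBP2L and TSC22D3. It included 1105 bp at MID2, a ubiquitin ligase gene, and 1323 bp centred in a 5′ UTR. The gene start nearest to the latter was that of NCBP2L, 57.8 kb away. There too the ProMMP2-3xHA list held 0 regions.

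WT-only regions lay near assembly gaps more often. A gap of at least 10 kb was within 1 Mb of 20.1% of WT-only regions (17.8 to 22.6%) and 13.7% of shared regions (13.1 to 14.3%), and of 20.0% and 14.4% among regions under 1000 bp. Without the regions near gaps, 7.17% of WT regions were WT only, 36.0% of the WT-only regions lay near a protein coding TSS and 6.96% had a merged HA peak.

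Base composition was read next. Over all widths, the GC content of the central 500 bp had a median of 65.2% (64.2 to 66.2%) against 65.4% for shared regions. The ratio of observed to expected CpGs was 0.736 against 0.774. For narrow regions, under 1000 bp, both were higher for the WT-only class, with 64.8% GC (63.6 to 65.8%) against 62.2% (61.6 to 63.0%) and a ratio of 0.726 against 0.698. Over whole regions of all widths, the median GC content was 63.6% for WT-only and 58.7% for shared regions. A centre with at least 50% GC and a ratio of at least 0.6, the usual criteria of a CpG island, was found in 66.5% of WT-only regions (63.6 to 69.2%), 76.1% of shared regions and 75.4% of all WT regions. Among regions under 1000 bp the order was the opposite, with 66.3% for WT-only regions (63.0 to 69.5%) and 61.8% for shared regions (59.6 to 63.9%), and these intervals overlapped.

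Short promoter motifs were counted on both strands of the same 500 bp. TATAAA occurred in 11.4% of WT-only regions and 8.21% of all WT regions, and TGANTCA in 7.77% and 5.94%. GGGCGG, the Sp1 GC box, occurred in 67.1% and 72.4%, CCAAT in 29.8% and 33.5%, and the E-box CACGTG in 7.94% and 8.88%. CCGGAAG, the core of ETS sites, showed the widest gap, with 8.74% of WT-only regions (7.16 to 10.5%) and 14.4% of all WT regions. Width changed several of these orders. Among regions under 1000 bp, TATAAA occurred in 10.9% of WT-only and 12.3% of shared regions, GGGCGG in 65.8% and 63.2%, and TGANTCA in 8.16% and 7.37%, with overlapping intervals in each case. The shares of CCGGAAG were 8.27% for WT-only regions and 9.66% for shared regions, with overlapping intervals. A match is only a stretch of these letters.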

How the data were processed

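The 6 samples were grouped by their titles. Per the labels and the study's methods, the authors trimmed reads with Trim Galore 0.6.0, aligned pairs to hg19 (GRCh37) with Bowtie2 2.3.5.1, kept a mapping quality of at least 30 with SAMtools 1.9, removed duplicates with Picard and called peaks with MACS2 3.0.0a6 at q 0.05 with a minimum length of 147 bp. The H3K4me3 lists and the merged HA list combine narrow and broad calls and hold intervals only. The deposited HA replicate lists give a score, the fold enrichment as a ratio over the control, and −log10 of the p-value and q-value for each peak. Of these, the fold enrichment described peaks and the −log10 q-value filtered them. Neighbouring regions were at least 1048 bp apart in the WT list and 1001 bp in the ProMMP2-3xHA list, so closer calls had been joined.

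Overlaps were computed in Python 3.11.15 with numpy 2.4.6 and scipy 1.17.1 and checked against bedtools 2.31.1, with 0 regions differing. On 2000 regions of a simulated list, 100% of planted overlaps were recovered. Lines of a replicate list with the same interval were taken as 1 peak, and a region took the highest fold enrichment within 1 kb. Genes came from GENCODE 44 lifted to GRCh37, and sequence from GRCh37. Named regions were the 10 widest with and the 10 widest without a protein coding TSS within 1 kb, the 10 with the highest mean HA enrichment in every replicate, the 3 longest runs, those nearest to each limit, and up to 4 genes of a list. Genes beyond this rule were named after their values were seen. The regions, gene lists and tests were chosen with earlier results of these data known. Some regions that the rule would name are not reported here. Columns not mapped to a sample numbered 0. Alternatives changed the width limit, the definition of overlap, the TSS set, the q-value (0.01 and 0.001) and the replicates used.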

Additional observations from a re-analysis of the deposited data

Results flagged for a closer look

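A signal was present in data that the comparisons left out. On contigs outside chromosomes 1 to 22, X and Y, the WT list held 29 regions, of which 22 were at least 500 bp wide, and 4 of these overlapped no ProMMP2-3xHA region. No merged HA peak lay within 1 kb of these 4, which is a count of 0.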

How the results depend on the processing

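The number of WT-only regions depended most on the width limit and on what counted as overlap. It was 1133 in the report, 287 with a limit of 1000 bp, 3053 with no limit, 3211 when a region was shared only if at least 50% of it was covered, and 2684 when only ProMMP2-3xHA regions of at least 500 bp counted. The share near a protein coding TSS (34.4%) was 23.2% with the TSS inside the region, 47.6% with all protein coding transcripts and 50.2% at 1000 bp or more. The promoter share (32.1%) was 46.0% with all transcripts and 43.9% at 1000 bp or more. The intron share (28.9%) was 21.1% and 25.8%, and the intergenic share (23.8%) was 13.9% at 1000 bp or more. The share with a merged HA peak (6.80%) was 3.35% when the peak had to overlap one of every replicate. Median GC content was 63.6% over whole regions and 65.2% over the central 500 bp. The cause of these shifts was not tested, beyond the wider or narrower definitions themselves.

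The mean HA difference of -34.3 points kept its sign in every alternative run, at -31.6 and -27.8 with q 0.01 and 0.001, and between -38.0 and -32.0 with 1 replicate left out, where the smallest p of 2 replicates is 0.5. Regions over 1 Mb from assembly gaps were added as an alternative after seeing the data and gave 905 regions. No paired analysis was possible because the groups share only replicate number 1. Each H3K4me3 group had 1 library, of unknown depth relative to the other, so no call between the lines could be checked against replicates.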

Other observations

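Noncoding genes also had starts at WT-only regions. A lncRNA TSS lay within 1 kb of 196 WT-only regions, 17.3% (15.1 to 19.6%), against 25.4% of all WT regions. Among regions under 1000 bp, the shares were 15.4% for WT-only and 18.3% for shared regions, with overlapping intervals. Starts of processed pseudogenes, copies of mRNAs inserted in the genome, lay near 28 WT-only regions (2.47%) and 113 shared ones (0.833%). Starts of unprocessed pseudogenes lay near 13 (1.15%) and 42 (0.310%). Annotated miRNA genes lay near 7 WT-only regions (0.618%) and 213 shared ones (1.57%), among them MIR1470 (739 bp, chr19:15560014-15560752), MIR4492 (1545 bp, chr11:118780139-118781683) and MIR4787 (921 bp, chr3:50712366-50713286). The shares of pseudogenes and miRNA genes are over all widths and were not tested against each other, and pseudogenes share sequence with their parent genes.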
